A study of Mus musculus with 14 samples.

Results

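Imprinted genes are expressed mainly from the copy inherited from one parent. Their signals were followed in mouse epidermis with and without the histone methyltransferase G9a, the product of Ehmt2. A list of 37 genes that textbooks give as imprinted, in 17 chromosomal clusters, was looked up on expression arrays. A gene was a member of the measured group when a probe set carried its symbol and no other, and the probe set with the highest mean over all 14 arrays stood for the gene. This gave 29 members of 17097 genes tested, in 14 clusters, with 64 such probe sets between them. Igf2r and Mest had only probe sets that also carry the symbol of an overlapping neighbour. H19, Peg10, Asb4, Zrsr1, Nnat and Inpp5f were not analysed here. Of the measured members, 17 are known as paternally and 11 as maternally expressed, and Gnas differs by isoform.

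The arrays measured RNA from the homeostatic epidermis of 15 week old mice. The groups were bulge cells of G9a cKO mice (n = 4), bulge cells of G9a WT mice (n = 3), interfollicular (IFE) cells of G9a cKO mice (n = 4) and IFE cells of G9a WT mice (n = 3). The bulge is the stem cell niche of the hair follicle, and the interfollicular epidermis is the skin surface between follicles. No further treatment is named for any group, and the sources used here do not give the driver of the deletion, the fraction of cells that lost the gene or the method of separating the compartments. Nothing in the labels says that replicates came from separate animals, so the p-values measure the spread between these arrays. All values below are RMA signals on a log2 scale, as deposited, or differences of them. The arrays do not tell the maternal from the paternal copy. In these bulk samples, fewer cells of a type and less RNA per cell cannot be told apart.

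As background, each imprinted cluster carries a control region whose DNA is methylated on one parental copy, and that mark decides which copy of the surrounding genes is transcribed. Several clusters make a long noncoding RNA, such as Kcnq1ot1 or Airn, which silences neighbours on the same chromosome. G9a places mono- and dimethyl marks on lysine 9 of histone H3, and in mouse embryonic cells and placenta it is known to take part in silencing at some imprinted loci.

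The deleted gene was checked first. One Ehmt2 probe set had a mean signal of 5.95 in bulge cKO and 9.63 in bulge WT, and 6.01 in IFE cKO and 9.67 in IFE WT. It was lower in cKO by 3.68 in bulge and 3.66 in IFE (SE 0.06 each, limma adjusted p = 1.11e-11 and 1.19e-11), while the other Ehmt2 probe set differed by 0.01 and 0.08. The 13 bulge stem cell markers were all higher in bulge WT than in IFE WT, with a median difference of 3.13. Bulge cKO replicates 2 and 3 stood apart from their group. Their mean over the bulge markers was 9.56 and 9.74, against 10.31 and 10.44 in bulge cKO replicates 1 and 4 and 10.48 to 10.59 in bulge WT. The mean over 14 epidermal differentiation markers was 9.12 and 8.88 in these arrays, 7.45 and 8.35 in replicates 1 and 4, and 6.99 to 7.44 in bulge WT. IFE cKO replicates 2 and 3 had bulge marker means of 8.04 and 8.05, against 7.53 and 7.52 in the other IFE cKO arrays and 7.53 to 7.57 in IFE WT. Calls that were lost without these arrays are named as such below.

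In bulge cells, 5 of the 29 members passed an adjusted p of 0.05 between cKO and WT, whereas 3.84% of all 17097 genes passed. Snrpn, Snurf and Ndn, all in one cluster on chromosome 7, were higher in cKO, as were 1.98% of all genes, and Sgce and Grb10 were lower, as were 1.85%. In IFE cells 2 members passed, Snrpn and Snurf, both higher in cKO, where 0.497% of all genes passed, 0.322% higher. The same transcript carries Snrpn and Snurf, so they are not independent observations. At an unadjusted p under 0.05 there were 8 members in each compartment, beside 25.7% of all genes in bulge and 11% in IFE. The median difference over the 29 members was -0.01 in bulge and 0.00 in IFE, beside 0.01 and -0.01 over all genes. Of the 29, 14 had a mean signal below 5.81, the median of all probe sets, which limits what can be seen. They include Ndn, Grb10, Cdkn1c, Rian, Dlk1, Nap1l5, Zim1 and Gnas. Arrays of the groups did not overlap for 9 members in bulge, 4 higher and 5 lower in cKO, and 18.5% of all genes had such groups there, 10.5% higher and 8.05% lower. In IFE the same held for 6 members, 5 higher and 1 lower, beside 11% of all genes, 5.01% higher and 5.97% lower.

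Snrpn encodes SmN, a spliceosomal protein that is most abundant in the brain, and its transcript also carries the upstream reading frame Snurf. Both are transcribed from the paternal copy of the Prader-Willi/Angelman region (GRCm38.p6, chromosome 7, Snrpn 59982495 to 60450177, Snurf 59982495 to 60005199). The members of this cluster with the clearest differences share a start region, which is printed below with every CpG in capitals, since methylation of CpG is the mark on which imprinting rests. It comes from RefSeq, lies at chr7:60005150-60005449 on the minus strand, has 7 CpG and was chosen for display after the values were seen.

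Snurf and Snrpn: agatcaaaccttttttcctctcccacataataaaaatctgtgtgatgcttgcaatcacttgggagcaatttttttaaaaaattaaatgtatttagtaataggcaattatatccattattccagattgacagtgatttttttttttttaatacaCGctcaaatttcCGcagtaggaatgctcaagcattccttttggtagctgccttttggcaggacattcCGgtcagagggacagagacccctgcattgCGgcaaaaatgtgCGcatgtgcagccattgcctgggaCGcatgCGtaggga

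In bulge cells, Snrpn had signals of 9.41, 9.37, 9.32 and 9.42 in cKO and 8.79, 8.61 and 8.78 in WT. In IFE cells it had 8.92, 9.20, 9.04 and 8.87 in cKO and 7.52, 7.61 and 7.79 in WT. Every cKO array was above every WT array of its compartment, and every IFE cKO array was also above every bulge WT array. The difference, cKO minus WT, was 0.66 ± 0.08 (SE) in bulge, a 1.57-fold change (limma adjusted p = 0.0020). In IFE it was 1.37 ± 0.08, a 2.58-fold change (limma adjusted p = 3.48e-06).

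Snurf had signals of 7.09, 6.78, 6.80 and 7.33 in bulge cKO and 6.31, 6.13 and 6.19 in bulge WT. In IFE it had 6.51, 6.71, 6.54 and 6.49 in cKO and 5.27, 5.29 and 5.27 in WT. Again no cKO array overlapped WT in either compartment, and the IFE cKO arrays lay above bulge WT. The difference was 0.79 ± 0.11 in bulge (1.73-fold, limma adjusted p = 0.0037) and 1.28 ± 0.11 in IFE (2.43-fold, limma adjusted p = 0.0001145). Since one transcript carries both reading frames, Snrpn and Snurf are not independent observations. Without cKO replicates 2 and 3 of both compartments, the differences were 0.69 for Snrpn and 1.00 for Snurf in bulge and 1.25 and 1.22 in IFE, and all 4 still passed.

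**Figure D1:**
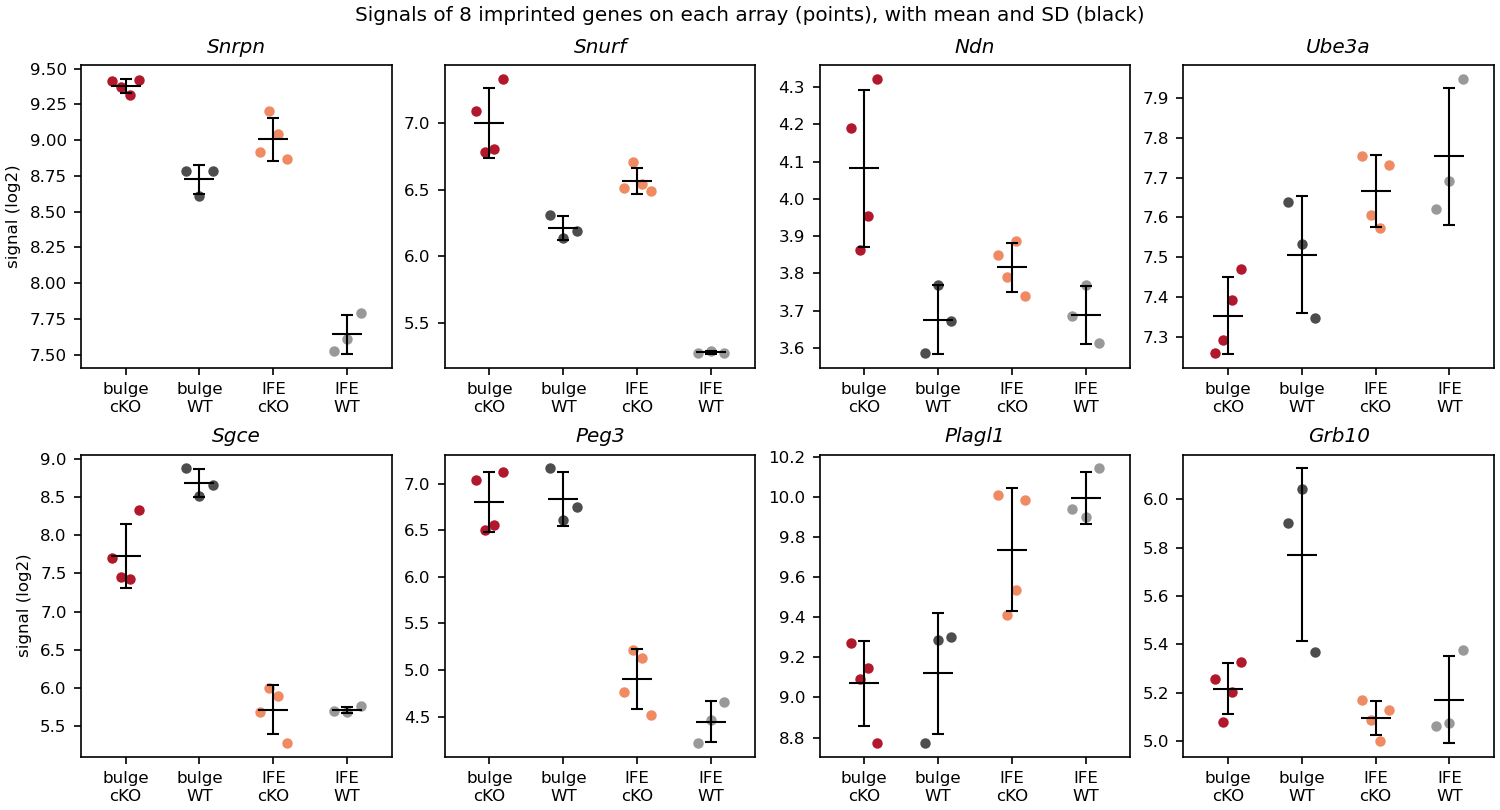
Signals (log2) of 8 imprinted genes on each array, with one panel per gene and its own vertical range; groups on the horizontal axis are bulge cKO, bulge WT, IFE cKO and IFE WT, points are arrays and black marks the mean and SD. Snrpn and Snurf are separated by genotype in both compartments, Ndn, Sgce and Grb10 in bulge, and Peg3, Sgce and Plagl1 differ by compartment.

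The other probe sets of the locus differed in how much they changed. The second Snrpn probe set was higher in cKO by 0.67 ± 0.10 in bulge and 1.47 ± 0.10 in IFE. The third was higher by 0.41 ± 0.05 and 0.30 ± 0.05, so its difference was not larger in IFE (difference of effects 0.11, limma adjusted p = 0.547). Of the 4 probe sets that carry both symbols, the brightest was higher by 0.66 ± 0.07 in bulge and 1.38 ± 0.07 in IFE, and the next by 0.27 ± 0.06 and 0.42 ± 0.06. The other 2 had mean signals of 4.17 and 3.56 and differences between -0.08 and 0.01, none of which passed. Snrpb, which encodes the related SmB proteins, had differences of -0.08 in bulge and -0.08 in IFE. Snhg14, the noncoding host transcript of the same locus, had 0.12 and 0.24, at dim signals of 3.74 to 4.26. In IFE all its cKO arrays, at 3.89 to 4.11, were above all its WT arrays, at 3.74 to 3.78, while its bulge groups overlapped. Neither gene passed the test, and both were chosen for mention after their values were seen.

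**Figure D2:**
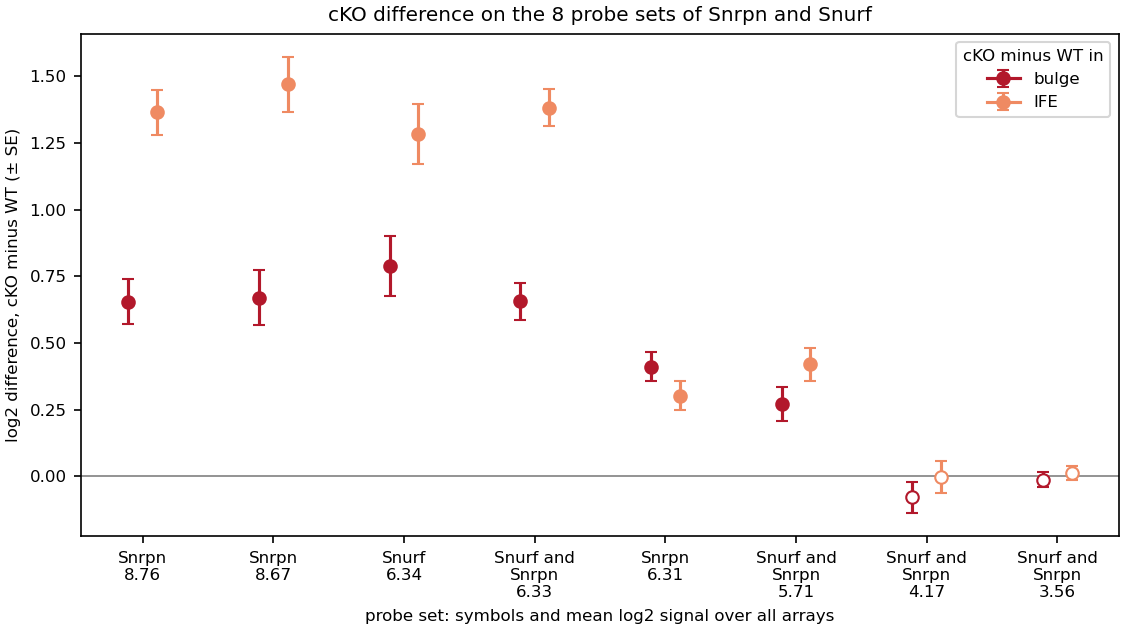
Difference in signal (log2, cKO minus WT, with SE) on the 8 probe sets of Snrpn and Snurf, ordered by mean signal over all arrays, with bulge left of IFE in each pair; filled points passed an adjusted p of 0.05. The 4 brightest sets differ by 0.66 to 0.79 in bulge and 1.28 to 1.47 in IFE, and the 2 dimmest lie near 0.

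Ndn, which encodes the MAGE family protein necdin, had signals of 4.19, 3.86, 3.95 and 4.32 in bulge cKO and 3.59, 3.77 and 3.67 in bulge WT. Every cKO array was above every WT array, with replicates 1 and 4 highest. The difference was 0.41 ± 0.10 (1.32-fold, limma adjusted p = 0.0401). In IFE, Ndn had 3.85, 3.79, 3.89 and 3.74 in cKO and 3.69, 3.77 and 3.61 in WT, with overlapping groups and a difference of 0.13 ± 0.10 that did not pass. These signals are far below 5.81, the median of all probe sets on the array. Without bulge cKO replicates 2 and 3 the bulge difference was 0.58. Leaving out single arrays (bulge WT replicate 1, 2 or 3, or bulge cKO replicate 1 or 3) gave limma adjusted p-values of 0.0593 to 0.165. The call was also lost with cyclic loess normalisation (limma adjusted p = 0.0595) and with arrays centred on their medians (0.0580). A replicate block (0.0806) and a fit of only the groups compared (0.154) lost it too. It passed in 6 of 15 alternatives.

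None of the remaining genes of the cluster passed between cKO and WT in either compartment. Magel2, another MAGE gene, had differences of 0.02 in bulge and 0.04 in IFE. Mkrn3, a ring finger gene whose human counterpart restrains puberty, had -0.01 and 0.12, and Peg12, of the Frat family, had 0.04 and -0.01. Ube3a encodes a ubiquitin ligase and lies next to Snrpn, with its maternal copy dominant in neurons. It had signals of 7.26, 7.29, 7.39 and 7.47 in bulge cKO and 7.64, 7.53 and 7.35 in bulge WT, and 7.75, 7.61, 7.57 and 7.73 in IFE cKO and 7.62, 7.69 and 7.95 in IFE WT. Its groups overlapped in both compartments, and its differences of -0.15 and -0.09 did not pass. Magel2, Mkrn3 and Peg12 had mean signals of 3.63 to 5.17, below the array's median, which limits what can be seen.

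The start regions of Ndn, and of 3 members described further on, are shown next for comparison with that of Snrpn, again from RefSeq (GRCm38.p6) with CpG in capitals. Ndn's lies at chr7:62348027-62348326 on the plus strand and has 11 CpG. That of Grb10, which passed in bulge and was lower, lies at chr11:12037371-12037670 on the minus strand and has 45. Those of Peg3 and Plagl1, the members with large and opposite differences between compartments, lie at chr7:6730370-6730669 (minus strand, 13 CpG) and chr10:13090582-13090881 (plus strand, 26 CpG).

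Ndn: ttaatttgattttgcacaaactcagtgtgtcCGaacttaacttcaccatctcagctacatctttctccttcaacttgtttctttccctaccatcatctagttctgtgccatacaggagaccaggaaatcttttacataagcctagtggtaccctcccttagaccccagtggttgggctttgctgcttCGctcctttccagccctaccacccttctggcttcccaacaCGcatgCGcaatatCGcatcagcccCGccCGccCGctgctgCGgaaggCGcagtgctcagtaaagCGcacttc
Grb10: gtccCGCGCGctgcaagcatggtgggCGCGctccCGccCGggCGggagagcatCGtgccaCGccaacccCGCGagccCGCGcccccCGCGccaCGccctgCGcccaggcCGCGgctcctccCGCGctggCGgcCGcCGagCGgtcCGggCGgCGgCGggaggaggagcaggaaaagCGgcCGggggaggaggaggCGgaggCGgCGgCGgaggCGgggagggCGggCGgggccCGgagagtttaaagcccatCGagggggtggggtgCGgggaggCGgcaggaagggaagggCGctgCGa
Peg3: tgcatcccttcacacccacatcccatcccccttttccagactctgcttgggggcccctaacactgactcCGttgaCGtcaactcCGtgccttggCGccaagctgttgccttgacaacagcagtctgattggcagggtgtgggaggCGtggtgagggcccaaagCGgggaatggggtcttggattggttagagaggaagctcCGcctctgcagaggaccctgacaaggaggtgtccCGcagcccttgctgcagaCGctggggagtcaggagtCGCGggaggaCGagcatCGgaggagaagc
Plagl1: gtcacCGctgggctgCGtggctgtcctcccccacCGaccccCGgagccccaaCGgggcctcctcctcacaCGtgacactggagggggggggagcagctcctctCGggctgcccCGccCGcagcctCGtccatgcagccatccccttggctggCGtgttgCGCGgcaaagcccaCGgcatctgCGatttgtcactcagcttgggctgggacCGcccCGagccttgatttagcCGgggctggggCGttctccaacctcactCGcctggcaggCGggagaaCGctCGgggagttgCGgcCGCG

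RefSeq start regions were matched for 26 of the 29 members, 38 windows of 300 bases in all, of which Snrpn has 4, one of them shared with Snurf. The letters TGCCGC, the hexamer read by the imprint-maintaining zinc finger protein ZFP57, occurred on either strand in 9 of the 38 member windows (23.7%), and in 11.6% of 32817 windows of all genes. The hexamer was in the windows of Snurf and Snrpn, Grb10 and Plagl1, and was not among the letters of the Ndn and Peg3 windows. The letters GCCATNTT, a core of the YY1 motif known from the Peg3 region, occurred on either strand in 2 member windows (5.26%) and in 6.04% of all windows. These 2 were those of Ube3a and Mkrn3. No member window held both motifs. The median number of CpG was 13.5 in member windows and 7 in all windows.

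Sgce, the paternally expressed gene for epsilon sarcoglycan (chromosome 6, 4674350 to 4747204), had signals of 7.70, 7.45, 7.42 and 8.32 in bulge cKO and 8.87, 8.51 and 8.66 in bulge WT. All cKO arrays were below all WT arrays, with replicates 2 and 3 lowest. The difference was -0.95 ± 0.21, a 1.94-fold lower signal (limma adjusted p = 0.0327). In IFE, Sgce had 5.689, 6.0002, 5.895 and 5.281 in cKO and 5.70, 5.69 and 5.76 in WT, with a difference of 0.00. Its second, dimmer probe set had a difference of -0.17 in bulge (limma adjusted p = 0.0580). Peg10, its partner at the shared control region, was not analysed here.

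Grb10 encodes an adaptor that inhibits the insulin and IGF receptors and is maternally expressed in most tissues. It had signals of 5.26, 5.08, 5.20 and 5.33 in bulge cKO and 5.90, 6.04 and 5.37 in bulge WT. The lowest WT array lay just above the highest cKO array. The difference was -0.56 ± 0.14, 1.47-fold lower (limma adjusted p = 0.0452), and all 3 Grb10 probe sets passed, at -0.33, -0.42 and -0.56. Over the 64 probe sets of the members, 5 were higher and 4 lower in bulge cKO, where 3.82% of all probe sets with 1 symbol passed. In IFE 4 were higher and 0 lower, beside 0.443%. Grb10 signals in IFE were 5.168, 5.087, 5.0015 and 5.128 in cKO and 5.06, 5.07 and 5.38 in WT, with a difference of -0.08.

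Both calls were lost without the arrays that stood apart, a setting that also took the calls over all genes to 116, against 656 with all arrays. Without bulge cKO replicates 2 and 3, the difference was -0.67 for Sgce (limma adjusted p = 0.306) and -0.48 for Grb10 (limma adjusted p = 0.352), while Snrpn, Snurf and Ndn still passed. Sgce also missed the threshold without any 1 bulge WT array or bulge cKO replicate 2 or 3, at adjusted p-values of 0.0565 to 0.144. Grb10 missed it without bulge WT replicate 1 or 2 or bulge cKO replicate 1, 2 or 3, at 0.0516 to 0.182. The bulge stem cell markers moved alongside: 8 of 13 had an unadjusted p under 0.05 between bulge cKO and bulge WT, none passed after adjustment, and their median difference was -0.52. Of 14 differentiation markers, 3 passed and were higher in bulge cKO, with a median difference of 1.12 over the list. Among immune markers, 4 of 8 for Langerhans and antigen presenting cells passed and were higher in bulge cKO, with list means of 6.71 to 7.33 in bulge cKO and 6.28 to 6.47 in bulge WT. Of the T cell markers, 6 of 8 were measured, with list means of 5.66 to 6.78 in bulge cKO and 5.36 to 5.64 in bulge WT, and none passed by limma, though all 6 had an unadjusted p under 0.05. In IFE, T cell list means were 6.33 to 6.85 in cKO and 5.96 to 6.30 in WT. The part of these cells in the Sgce and Grb10 differences was not tested.

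**Figure D3:**
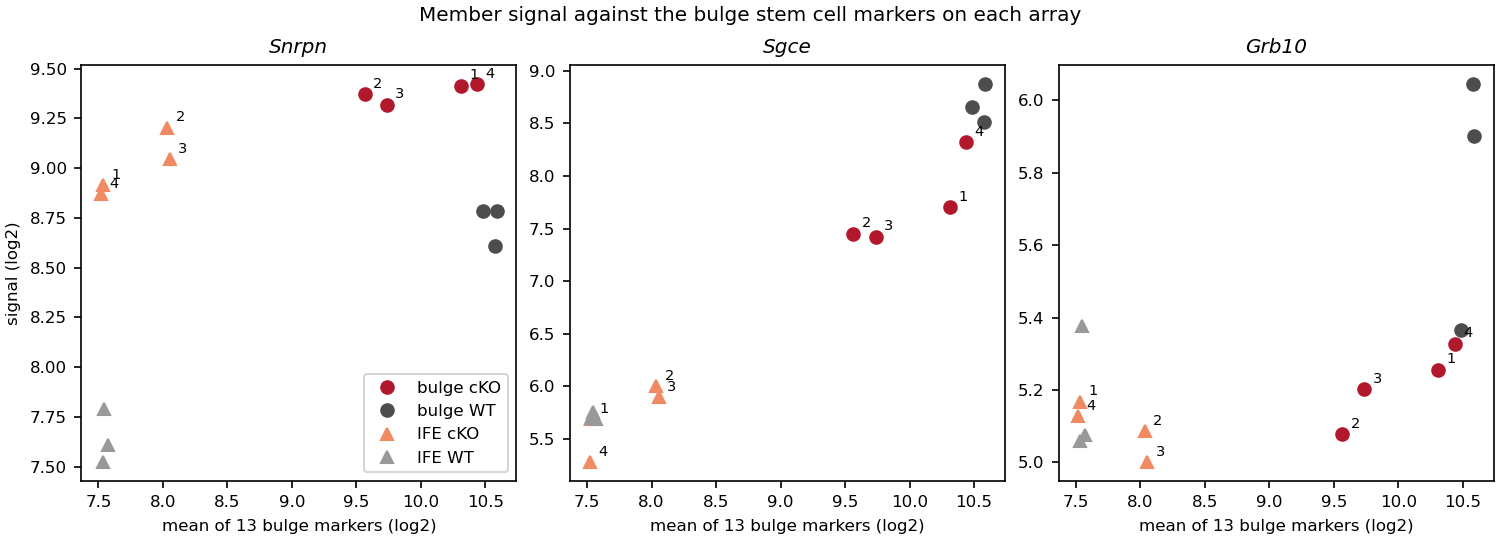
Signal (log2) of Snrpn, Sgce and Grb10 on each array against the mean signal of 13 bulge stem cell markers (log2); circles are bulge and triangles IFE, coloured by group, and the digits give the replicate numbers of cKO arrays. Bulge cKO replicates 2 and 3, with marker means of 9.56 and 9.74, have Sgce of 7.45 and 7.42, against 7.70 and 8.32 on replicates 1 and 4. Grb10 on them is 5.08 and 5.20, against 5.26 and 5.33, and Snrpn is 9.37 and 9.32, against 9.41 and 9.42.

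The other 24 members did not pass in bulge, with differences between -0.21 and 0.23, and the other 27 did not pass in IFE, with differences between -0.26 and 0.46. At the Dlk1 and Meg3 cluster, the bulge groups did not overlap for Dlk1, a Notch ligand-like protein, at -0.12 (limma adjusted p = 0.0838). Nor did they for Rian, a noncoding RNA that hosts small nucleolar RNAs, at 0.23 (limma adjusted p = 0.0938). Meg3, the noncoding RNA expressed from the maternal copy, had 0.09 in bulge and -0.15 in IFE. Igf2, the fetal growth factor, had 0.06 and -0.08 at signals below the array's median.

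At the Kcnq1ot1 cluster, where the RNA of that name silences its neighbours in cis, none of the 6 measured genes passed in either compartment. Kcnq1ot1 itself had a mean of 8.57 in bulge cKO and 8.69 in bulge WT, and 8.56 in IFE cKO and 8.50 in IFE WT. Its maternally expressed neighbours Cdkn1c, the cell cycle inhibitor p57, and Phlda2, a brake on placental growth, had bulge differences of -0.21 and -0.07 and IFE differences of -0.09 and -0.15. The transporter Slc22a18 had -0.09 and -0.17, the lipid transfer protein gene Osbpl5 had -0.01 and 0.12, and the transcription factor Ascl2 had 0.13 and 0.04. Kcnq1, which hosts the RNA and is no member, had 0.12 and 0.02. The bulge groups of Kcnq1ot1 did not overlap, at 8.43 to 8.67 in cKO and 8.69 to 8.70 in WT (limma adjusted p = 0.565). Its other probe sets differed in both directions in bulge. Those of Phlda2 did not overlap either, at 6.80 to 6.86 in bulge cKO and 6.88 to 6.93 in bulge WT (limma adjusted p = 0.333). Lower groups without overlap held for 8.05% of all genes in bulge.

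Peg3, a zinc finger gene, had the largest difference among members that did not pass in IFE, 0.46. Its IFE signals were 4.77, 5.21, 5.13 and 4.52 in cKO and 4.22, 4.46 and 4.66 in WT, which overlapped, and replicates 2 and 3 were the highest cKO arrays. Without them the IFE difference was 0.20. The groups of Impact, a regulator of the kinase GCN2, did not overlap in IFE, with 5.96, 5.95, 6.13 and 6.16 in cKO and 5.92, 5.93 and 5.65 in WT, but its difference of 0.22 did not pass (limma adjusted p = 0.421). The probe set shared by Airn and Igf2r had differences of -0.12 in bulge and -0.03 in IFE, that shared by Copg2 and Mest had -0.12 and 0.05, and that shared by Gnas and its antisense transcript had 0.29 and 0.33. None of these passed.

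**Figure D4:**
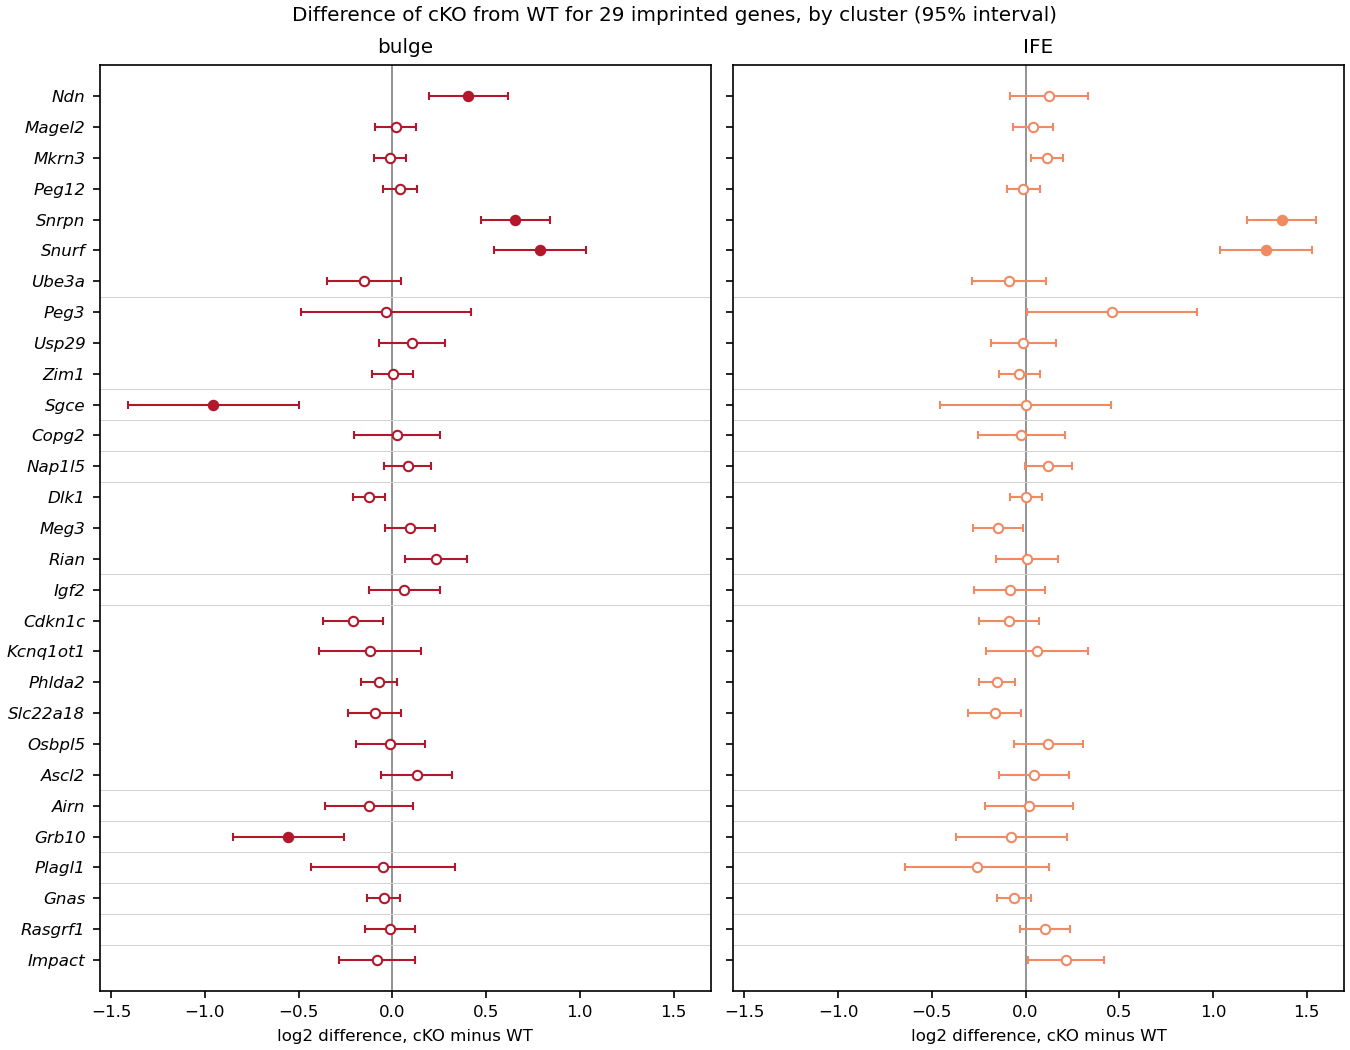
Difference in signal (log2, cKO minus WT) of the 29 members, grouped by cluster between grey lines, in bulge (left) and IFE (right); bars are 95% intervals of the fit and filled points passed an adjusted p of 0.05 over all genes. Snrpn and Snurf are filled in both panels, and Ndn, Sgce and Grb10 in bulge.

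Whether the difference between cKO and WT was unequal in the 2 compartments was tested as the difference of the effects, bulge minus IFE. No member passed limma's adjusted p of 0.05, where 0.105% of all genes did, 0.0234% with a positive and 0.0819% with a negative difference. Nor did any of the 64 probe sets, beside 0.1% of all probe sets with 1 symbol. At an unadjusted p under 0.05 there were 8 members, and 14.1% of all genes. Snrpn came nearest, at -0.71 ± 0.12 (limma adjusted p = 0.0572), with Snurf at -0.49 ± 0.16 (0.233), Sgce at -0.96 ± 0.30 (0.221) and Grb10 at -0.48 ± 0.19 (0.305). Snrpn passed when arrays were centred on their medians (-0.72, adjusted p = 0.0412), without IFE WT replicate 3 (-0.79, 0.0477) and without bulge cKO replicate 4 (-0.72, 0.0299). Snurf (-0.60, 0.0328) and Sgce (-1.15, 0.0326) also passed without that last array. Without replicates 2 and 3 of both cKO groups no member passed, and the difference of effects was -0.56 for Snrpn (adjusted p = 0.485), -0.22 for Snurf, -0.44 for Sgce and -0.46 for Grb10. Without bulge cKO replicates 2 and 3 alone it was -0.67 for Snrpn, -0.29 for Snurf, -0.67 for Sgce and -0.40 for Grb10. The brightest probe set shared by Snurf and Snrpn passed in a fit over all probe sets, at -0.73 ± 0.10 (limma adjusted p = 0.0159). Its signals were 6.96, 6.81, 6.83 and 6.99 in bulge cKO and 6.23, 6.27 and 6.21 in bulge WT, and 6.46, 6.76, 6.68 and 6.68 in IFE cKO and 5.25, 5.21 and 5.33 in IFE WT. For this probe set too, the IFE cKO arrays lay above the bulge WT arrays.

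Between compartments, imprinted genes differed in both directions. In cKO mice, 12 of 29 members passed between bulge and IFE, 10 higher and 2 lower in bulge, beside 32.1% of all genes, 17.6% higher and 14.6% lower. At an unadjusted p under 0.05 there were 15, beside 42.8%. In WT mice, 13 passed, 11 higher and 2 lower, beside 35.1% of all genes, 18.4% higher and 16.6% lower. At an unadjusted p under 0.05 there were 17, beside 43.7%. The groups did not overlap for 12 members in cKO, 9 higher and 3 lower in bulge, beside 33% of all genes, 17.9% higher and 15% lower. In WT this held for 16 members, 12 higher and 4 lower, beside 47.4% of all genes, 23.7% in each direction. Of the 64 probe sets, 14 were higher and 5 lower in bulge in cKO, and 18 and 5 in WT, where 32.8% and 36.8% of all probe sets with 1 symbol passed. The median difference over the members was 0.13 in cKO and 0.10 in WT, against 0.03 and -0.01 over all genes. The cKO and WT comparisons share no arrays with each other, but each shares arrays with the genotype comparisons above.

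Sgce had the largest difference of the members between the compartments. The bulge signals given above were higher than those of IFE by 2.01 ± 0.19 in cKO (4.03-fold, limma adjusted p = 5.76e-05) and 2.96 ± 0.22 in WT (7.80-fold, limma adjusted p = 5.72e-06). Peg3, which marks stem cells in several adult mouse tissues, came next. Its bulge signals were 7.04, 6.50, 6.56 and 7.13 in cKO and 7.16, 6.61 and 6.75 in WT, all well above the IFE arrays given above. It was higher in bulge by 1.90 ± 0.19 in cKO and 2.39 ± 0.22 in WT, and the second Peg3 probe set by 1.75 and 2.53. Without replicates 2 and 3 of both cKO groups, the cKO difference was 2.53 for Sgce and 2.44 for Peg3. Usp29, a deubiquitinase gene that starts on the opposite strand and whose start window overlaps that of Peg3 by 263 bases, had differences of 0.20 in cKO and 0.09 in WT, which did not pass.

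Snrpn and Snurf were higher in bulge in both genotypes. For Snrpn the difference was 0.37 ± 0.08 in cKO and 1.08 ± 0.09 in WT, and for Snurf 0.44 ± 0.10 and 0.93 ± 0.12. All bulge arrays were above all IFE arrays of the same genotype for both genes. For Grb10 the difference was 0.12 in cKO and did not pass. In WT it was higher in bulge by 0.60 ± 0.15 (limma adjusted p = 0.0064), though bulge WT replicate 3 at 5.37 lay within the IFE WT range.

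Airn, the antisense RNA that silences Igf2r on the paternal copy, had signals of 7.34, 7.21, 7.21 and 7.14 in bulge cKO and 6.64, 6.73, 6.63 and 6.27 in IFE cKO. In WT it had 7.38, 7.20 and 7.46 in bulge and 6.50, 6.44 and 6.72 in IFE. Bulge arrays were above IFE arrays throughout, by 0.66 ± 0.10 in cKO and 0.80 ± 0.11 in WT. The probe set shared with Igf2r was higher by 0.30 and 0.39 and passed in both, and of the 2 other Airn probe sets one was higher by 0.13 and 0.24 and passed, and one had 0.03 and -0.01 and did not. Because Airn and Igf2r overlap on opposite strands and nothing in the sources used here says whether strand was kept, their signals cannot be told apart on this array.

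Plagl1, the growth-restraining zinc finger factor ZAC1, was lower in bulge. It had signals of 9.27, 9.09, 9.14 and 8.77 in bulge cKO and 10.01, 9.41, 9.54 and 9.98 in IFE cKO. In WT it had 8.77, 9.29 and 9.30 in bulge and 9.94, 9.90 and 10.14 in IFE. No arrays overlapped between compartments, with differences of -0.67 ± 0.16 in cKO (limma adjusted p = 0.0090) and -0.87 ± 0.19 in WT (limma adjusted p = 0.0033). Its second probe set had -1.18 and -1.53, both past the threshold.

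Among the Kcnq1ot1 cluster genes, Cdkn1c had signals of 5.30, 5.30, 5.28 and 5.57 in bulge cKO and 5.25, 5.09, 5.05 and 5.20 in IFE cKO. In WT it had 5.57, 5.55 and 5.60 in bulge and 5.27, 5.30 and 5.14 in IFE. It was higher in bulge by 0.21 ± 0.07 in cKO and 0.33 ± 0.08 in WT, with no overlap. Slc22a18 had signals of 7.67, 7.56, 7.73 and 7.75 in bulge cKO and 7.277, 7.471, 7.372 and 7.504 in IFE cKO, and 7.77, 7.82 and 7.73 in bulge WT and 7.67, 7.53 and 7.51 in IFE WT. Bulge was above IFE in both genotypes, by 0.27 ± 0.06 in cKO and 0.20 ± 0.07 in WT. Its second probe set was higher by 0.24 and 0.27 and passed in both.

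Osbpl5 had signals of 9.30, 9.42, 9.42 and 9.45 in bulge cKO and 9.07, 9.44, 9.29 and 9.26 in IFE cKO, which overlapped, with a difference of 0.13 that did not pass. In WT it had 9.52, 9.33 and 9.36 in bulge and 9.26, 9.13 and 9.03 in IFE, without overlap, and a difference of 0.26 ± 0.09 that passed (limma adjusted p = 0.0406). Phlda2 had 6.85, 6.86, 6.80 and 6.84 in bulge cKO and 6.90, 6.91, 6.96 and 7.02 in IFE cKO, without overlap, and the difference of -0.11 had a limma adjusted p of 0.0617. In WT it had 6.92, 6.88 and 6.93 in bulge and 7.16, 7.13 and 7.01 in IFE, again without overlap, and was lower in bulge (-0.19 ± 0.05, limma adjusted p = 0.0079). Whether the bulge minus IFE difference of any member depended on genotype is the same contrast as the difference of effects, in which none passed.

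A few further members passed with small differences. Impact in WT had 6.24, 6.31 and 6.24 in bulge, against the IFE signals given above, a difference of 0.43 ± 0.10. Nap1l5, a nucleosome assembly protein-like gene, had 4.93, 4.83 and 5.01 in bulge WT and 4.79, 4.66 and 4.79 in IFE WT, a difference of 0.18. In both, the lowest bulge array was above the highest IFE array. In cKO, Ube3a was lower in bulge by -0.31 ± 0.08 on the signals given above, with no overlap. Zim1, a maternally expressed zinc finger gene beside Peg3, had 4.34, 4.52, 4.39 and 4.39 in bulge cKO and 4.29, 4.31, 4.29 and 4.24 in IFE cKO, a difference of 0.13 with no overlap. Meg3 had 6.43, 6.68, 6.54 and 6.55 in bulge cKO and 6.44, 6.41, 6.30 and 6.25 in IFE cKO, a difference of 0.21 with overlap, and the other Meg3 probe sets did not pass. Ndn was higher in bulge cKO than in IFE cKO by 0.27 ± 0.09, with overlap.

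Several of these smaller calls depended on single arrays. In cKO, 8 fits each left out 1 array. Zim1 passed in 1 of them, Ndn in 2, Cdkn1c in 4 and Meg3 in 7, with limma adjusted p-values up to 0.123. Without bulge cKO replicates 2 and 3, the cKO calls of Meg3, Zim1 and Ube3a were lost (adjusted p = 0.111, 0.243 and 0.0670). Without replicates 2 and 3 of both cKO groups, these and Cdkn1c were lost (0.200, 0.301, 0.0720 and 0.148). Ube3a also missed the threshold with the replicate number as a block (0.0507). In WT, Nap1l5, Osbpl5 and Slc22a18 missed the threshold without single arrays, at limma adjusted p-values of 0.0604 to 0.156. This held for Slc22a18 without any 1 of 5 arrays and for Osbpl5 without any 1 of 4. Sgce, Peg3, Airn, Plagl1, Snrpn and Snurf passed in both genotypes whichever array was left out. The 10 fibroblast and dermal papilla markers had list means of 6.10 to 6.37 in bulge cKO, 6.08 to 6.23 in bulge WT, 5.54 to 5.86 in IFE cKO and 5.55 to 5.70 in IFE WT. Of these only Postn and Fbln1 passed between compartments in WT. The collagen gene Col3a1 was highest on the arrays that stood apart, at 7.84 and 6.64 on bulge cKO replicates 2 and 3 and 6.66 and 6.51 on IFE cKO replicates 2 and 3. On the other arrays it was 5.46 and 5.64 in bulge cKO, 5.28, 4.9995 and 5.43 in bulge WT, 5.401 and 5.501 in IFE cKO and 5.52, 4.42 and 5.24 in IFE WT. Col1a1 reached 7.66 on bulge cKO replicate 2, with a mean of 6.429 in bulge WT and 5.799 in IFE WT. Pdgfra and Col1a2 had means of 4.13 to 4.17 and 4.29 to 4.38 in all groups. The part of such cells in the compartment differences was not tested.

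**Figure D5:**
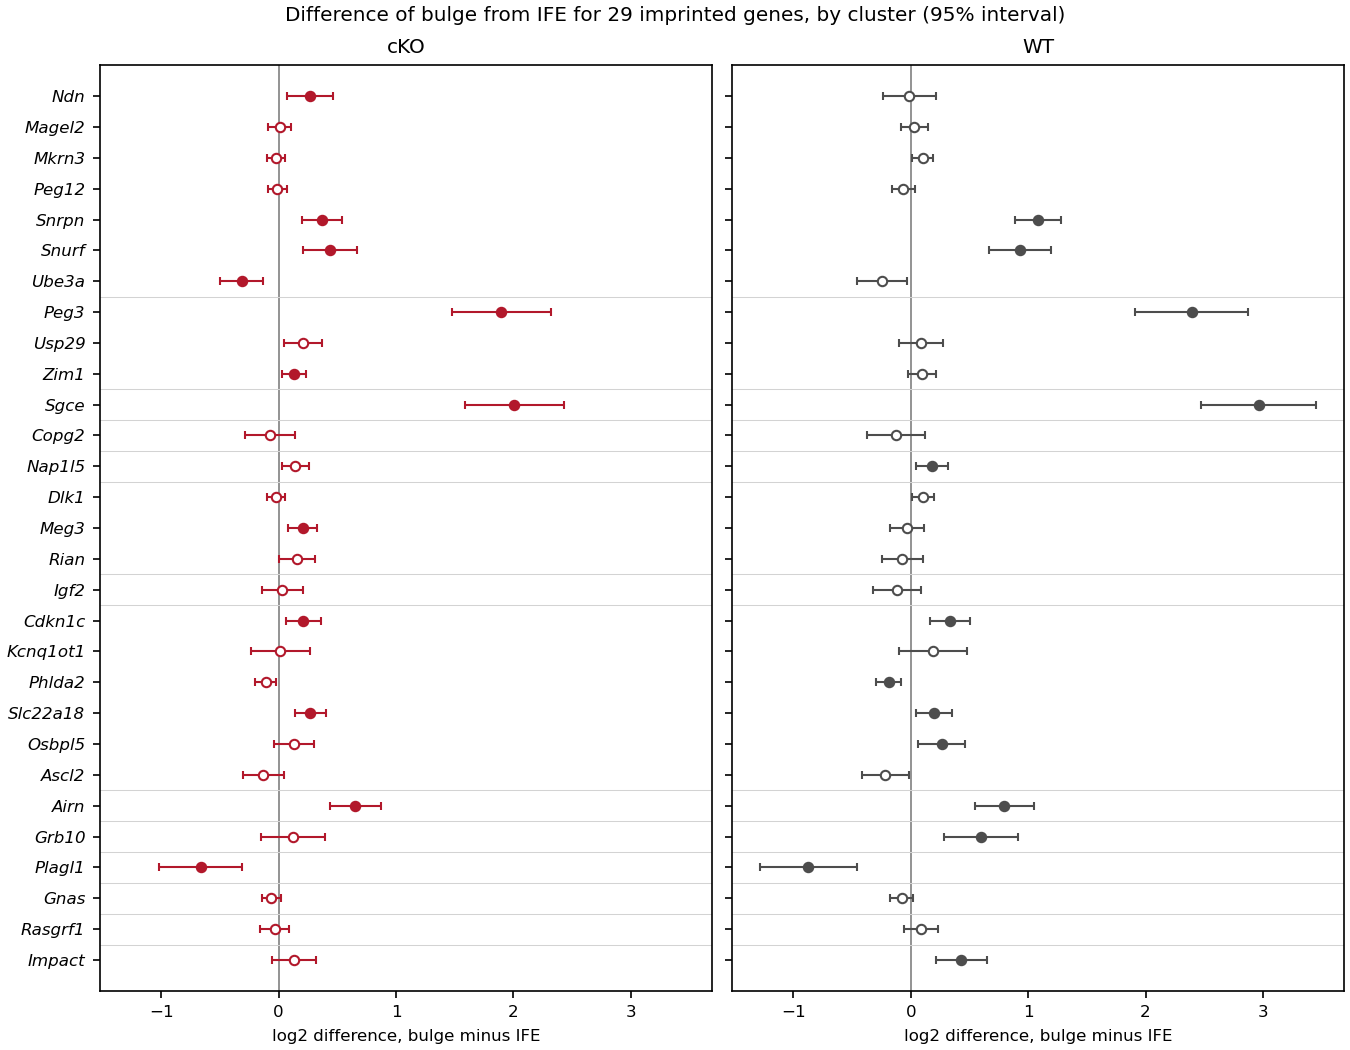
Difference in signal (log2, bulge minus IFE) of the 29 members, grouped by cluster between grey lines, in cKO (left) and WT (right) mice; bars are 95% intervals of the fit and filled points passed an adjusted p of 0.05 over all genes. Sgce and Peg3 lie farthest to the right, at 2.01 and 1.90 in cKO and 2.96 and 2.39 in WT, and Plagl1 farthest to the left.

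By parental copy, 3 of the 17 paternally expressed members were higher and 1 was lower in bulge cKO than in bulge WT, and 1 of the 11 maternally expressed members was lower, where 1.98% of all genes were higher and 1.85% lower. In IFE, 2 paternal members were higher in cKO, beside 0.322% of all genes, and no maternal member passed. These 2 are Snrpn and Snurf, also among the 3 in bulge, which share a transcript and are not independent observations. Between compartments, 6 paternal and 4 maternal members were higher in bulge in cKO, beside 17.6% of all genes, and 7 and 4 in WT, beside 18.4%. In both genotypes 1 of each kind was lower, beside 14.6% of all genes in cKO and 16.6% in WT.

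A second list held 52 further genes reported as imprinted in some tissue, of which 40 were measured. Between cKO and WT, 1 passed in bulge and 2 in IFE, all higher in cKO. These are 2.5% and 5% of the 40, beside 1.98% and 0.322% of all genes that passed and were higher. Slc38a4, an amino acid transporter whose imprinting in mouse does not need inherited DNA methylation, was higher by 2.12 ± 0.20 in bulge and 4.18 ± 0.20 in IFE. Its mean signal was 9.83 in bulge cKO and 7.70 in bulge WT, and 9.53 in IFE cKO and 5.35 in IFE WT. Its difference of effects, -2.06 ± 0.28, also passed (limma adjusted p = 0.0228), and as for Snrpn the cKO means of the compartments were closer to each other than the WT means. Casd1, a sialic acid acetyltransferase gene and a neighbour of Sgce, had 6.92, 7.10, 7.27 and 7.23 in IFE cKO and 6.18, 6.57 and 6.01 in IFE WT, without overlap. Its difference was 0.88 ± 0.15 in IFE (limma adjusted p = 0.0271) and 0.02 in bulge, where Sgce was lower. Between compartments, 7 of the 40 were higher and 6 lower in bulge in cKO, and 7 and 7 in WT. These are 32.5% of the 40 in cKO and 35% in WT, near the 32.1% and 35.1% of all genes.

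A list of genes that maintain imprints or shape the same chromatin held 32, of which 28 were measured. They include Ehmt2 itself, which the gene-level fit reads from its brighter probe set, the one without a difference. By that fit, only Mbd1, a reader of methylated DNA, passed in bulge, at -0.27 ± 0.06 (limma adjusted p = 0.0387), and none passed in IFE by limma, where 2 had an unadjusted p under 0.05. Ehmt1, the partner of G9a, had differences of -0.19 and -0.09. Between compartments, 10 were lower and 1 higher in bulge in cKO, and 7 and 2 in WT. With both directions pooled, that is 39.3% of the 28 in cKO and 32.1% in WT, beside 32.1% and 35.1% of all genes. By direction, 14.6% of all genes were lower and 17.6% higher in cKO, and 16.6% and 18.4% in WT. Most calls in this list were in the lower direction. The lower ones in WT included the Polycomb genes Ezh2, at -1.18 ± 0.15, and Eed, at -1.12 ± 0.21, and the DNA methylation maintenance genes Uhrf1, at -0.94 ± 0.21, and Dnmt1, at -0.64 ± 0.10.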

How the data were processed

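RNA was extracted with TRizol, amplified as cDNA and labelled with biotin, per the labels' protocols. The authors deposited a table of log2 values, one per probe set and array, and the submitters' processing notes name RMA. RMA corrects background, makes the distributions of the arrays alike and summarises the probes of a set, so a shift shared by most genes would be removed. The sources used here name no version and no later step. The table held 45141 probe sets, of which 28898 had 1 symbol, 551 several and 15692 none in the platform annotation; 28689 matched a RefSeq gene by Entrez identifier. No detection calls were used, and the number of arrays limits the precision.

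One linear model with a mean for each of the 4 groups was fitted to all 14 arrays with limma 3.58.1 in R 4.3.3 (lmFit, eBayes, 10 residual degrees of freedom), with the probe set of highest mean for each of 17097 genes. Tests were two-sided, with Benjamini-Hochberg adjustment over all genes and a threshold of 0.05. Every adjusted p is from limma. Values for further probe sets come from the same model over all probe sets with 1 symbol (28898), and those shared by several symbols from a fit over all probe sets. Scripts were tested on simulated data. Members passing in any comparison are given by array, others by range, counts or difference. The members, gene lists, alternatives and printed windows were chosen with earlier results of these data known. Promoter windows come from RefSeq (GRCm38.p6). Figures used Python 3.11.15 and matplotlib 3.10.9. Alternatives were other normalisations, a filter on dim probe sets, other probe set choices, a trended and robust fit, only the groups compared, a replicate block, a threshold of 0.1 and arrays left out.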

Additional observations from a re-analysis of the deposited data

Results flagged for a closer look

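The values of 2 single arrays lay far from the rest of their group, among 58 groups of 4 arrays examined; chance gives about 1 in 20. Cdkn1c was 5.57 on bulge cKO replicate 4, and 5.28 to 5.30 on the other bulge cKO arrays. Without that array its bulge difference, cKO minus WT, was -0.28 with a limma adjusted p of 0.0151, whereas with it the difference was -0.21 and did not pass. Ascl2 was 7.22 on IFE cKO replicate 3, and 7.34 to 7.36 on the other IFE cKO arrays. The difference of effects between compartments passed for a gene outside the list and for a probe set with several symbols. For Slc38a4, the effect in bulge minus that in IFE was -2.06. For the brightest probe set shared by Snurf and Snrpn it was -0.73. In the gene-level fit, Snrpn (limma adjusted p = 0.0572) and Snurf (0.233) did not pass. Neither Slc38a4 nor the shared probe set was followed under the alternatives.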

How the results depend on the processing

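Snrpn and Snurf stayed higher in cKO under all alternatives run in both compartments, and passed in all except Snurf in bulge when only the bulge arrays were fitted (adjusted p = 0.0802). For the 17 members that passed in some comparison (the other 12 were not followed singly), 1381 values were computed under an alternative, of which 1275 kept their side of the threshold, 91 lost it, 15 gained it and 0 changed direction while past it. The 5 calls in bulge cKO against bulge WT became 3 when dim probe sets were left out, which removed Ndn and Grb10 from the test. They became 1 with only the groups compared, 3 without bulge cKO replicates 2 and 3, 3 without replicates 2 and 3 of both cKO groups (an alternative chosen after seeing the data), and 2 to 7 without single arrays. Over all genes the same count was 656, and ranged from 72 with only the groups compared to 2553 without bulge cKO replicate 4. The 0 calls in the difference of effects became 1 when arrays were centred on their medians, 1 at a threshold of 0.1, and 0 to 3 without single arrays. The 13 calls between compartments in WT became 8 with only the groups compared and 10 to 15 without single arrays. The 12 in cKO became 8 with only the groups compared and 8 to 11 without single arrays. With arrays centred on their medians, 8 members were higher and 4 lower in bulge in WT, where 6425 of all genes passed. In cKO this setting gave 6 higher and 3 lower, where 5163 of all genes passed. The 2 calls in IFE stayed 2 in each alternative. With the replicate number as a block, the calls were 2 in bulge cKO against WT, 2 in IFE cKO against WT, 0 in the difference of effects, 11 between compartments in cKO and 12 in WT. Over all genes, the deviations of same-numbered arrays had correlations of -0.62 to 0.25, and of -0.57 to 0.25 between compartments of one genotype. In no comparison was each pair above 0.1, so the numbers were not taken to pair the samples. This check cannot exclude pairing. Against the rest of their group, cKO replicates 2 and 3 had lower bulge marker means in bulge but higher ones in IFE. The cKO replicates 2 and 3 did have the highest T cell and Langerhans list means of their group in both compartments. The fit of only the groups compared could not be run for the difference of effects, which needs all groups. Signals near the floor of the array, as for Ndn, Mkrn3 and Peg12, limit what can be seen. The cause of the changes was not tested. Leaving out dim genes or arrays showed only whether a call was kept.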
